A study of Mus musculus with 6 samples.

Results

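The nuclear-encoded subunits of the mitochondrial respiratory chain and of ATP synthase were compared between lymphatic endothelial cells (LEC) of a metastatic tumour and LEC of normal skin. Members were the genes whose symbols carry the family names of these subunits (Nduf with a letter a, b, c, s or v, Sdha to Sdhd, Uqcr, Cox4 to Cox8 and Atp5) and that had at least 1 Affymetrix probe set annotated to a single gene. The rule found 81 genes among the 18193 genes measured, 35 in complex I, 4 in complex II, 8 in complex III, 17 in complex IV and 17 in complex V. Each gene was read from the probe set with the highest mean over the 6 arrays. Of the 81, 74 passed the filter on low values and were tested.

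Both groups were cultured mouse cells of the C57BL/6 strain, with 3 arrays each. Tumour LEC were taken from fibrosarcomas of injected T241 cells carrying VEGF-C, which makes lymphatic vessels grow, and green fluorescent protein. Normal LEC came from the tail dermis of females aged 8 weeks. The labels describe growth on gelatin in an endothelial medium and antibody selection for LYVE-1, a surface receptor of lymphatic endothelium, but their wording leaves the last steps for the tumour cells unclear. Age and sex of the tumour-bearing mice are not given in the sources used here. The array titles of the tumour group mention tumour cells and the source texts name LEC, which is the reading followed. Nothing in the labels ties a replicate to its own animal or culture, so the p-values speak only of the spread among these 6 arrays, which may be technical.

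All 6 lymphatic and endothelial markers read above background on every array, with a median log2 difference of 0.50 between tumour and normal LEC. Lyve1 itself had a log2 level of 14.60 ± 0.43 in tumour and 14.00 ± 0.34 in normal cells (SD, n = 3). All 12 fibroblast markers were also above background on some array. Their summed level, on the log2 scale, was 7.97 to 8.99 on the tumour arrays and 12.83 to 15.56 on the normal arrays. That of 19 cell division genes was 14.03 to 15.77 on tumour and 15.69 to 16.22 on normal arrays, and that of 12 leukocyte markers 11.00 to 12.93 and 10.90 to 12.26. Of 6 keratinocyte markers 4, and of 8 striated muscle markers 7, were at background on all arrays. The part of these other cells in the subunit values was not tested, and fewer cells of a type and less RNA per cell cannot be told apart in such bulk samples.

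The respiratory chain passes electrons from NADH at complex I and from succinate at complex II, through ubiquinone, to complex III, then through cytochrome c to complex IV, where oxygen is reduced. Complexes I, III and IV pump protons across the inner membrane, and complex V, the ATP synthase, lets them flow back to make ATP. A few subunits of complexes I, III, IV and V are encoded by mitochondrial DNA and the rest by nuclear genes. Cultured endothelial cells draw much of their ATP from glycolysis, and the chain also serves them in redox balance and biosynthesis. The 13 subunits encoded by mitochondrial DNA are not analysed here.

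Transcripts of most subunits were present in both groups and differed little between tumour and normal LEC. Of the 81 genes, 72 read above background on every array, where background means the brightest control probe set, on that array, for bacterial RNA that was not in the sample. The median log2 difference, tumour minus normal, was 0.0031 over the 81 subunits and 0.050 over all 18193 genes. None of the 74 tested subunits passed limma's test at an adjusted p of 0.05 (Benjamini-Hochberg over 12955 genes), the smallest being adjusted p = 0.228, whereas 28 of all genes tested (0.216%) did. Without adjustment 7 subunits (9.46%) had a p under 0.05, 3 higher and 4 lower in tumour LEC, against 15.5% of all genes tested.

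Because a p that misses the threshold does not show equal levels, the intervals of the differences were read as well. For 71 of 74 subunits (95.9%) the 95% interval of limma lay within a 2-fold change in either direction. The same held for 62.0% of all genes tested and for 68.0% of the 2539 genes with a mean log2 value above 10, the range where 64 of the tested subunits lay. The exceptions were Ndufa4, Cox7c and Cox6b2. A narrower band of 0.5 log2 units held the whole interval for 43 subunits (58.1%) and for 24.7% of all genes. Cox8b, at background on all arrays, is counted in the 71 and in the 43, although its values give no bound on a change.

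The differences were also small beside those of other genes. The median size was 0.12 log2 units for the tested subunits, 0.24 for all genes tested and 0.24 for the genes with a mean above 10. A single subunit, Ndufa4, differed by more than 0.5, which is 1.35% of those tested, against 26.2% of all genes and 22.1% of the bright ones. None differed by more than 1, against 10.6% and 6.70%. Replicates also lay closer together, with a median SD of 0.096 on the normal and 0.15 on the tumour arrays (n = 3 each), against 0.20 and 0.26 for all genes tested. These are descriptions of the members beside other genes, without a test. They rest on the brightest probe set of each gene, with subunit means of up to 14.96, and the cut at 10 matches that brightness only in part. Whether brightness has a part in the small sizes and SDs was not tested.

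**Figure D1:**
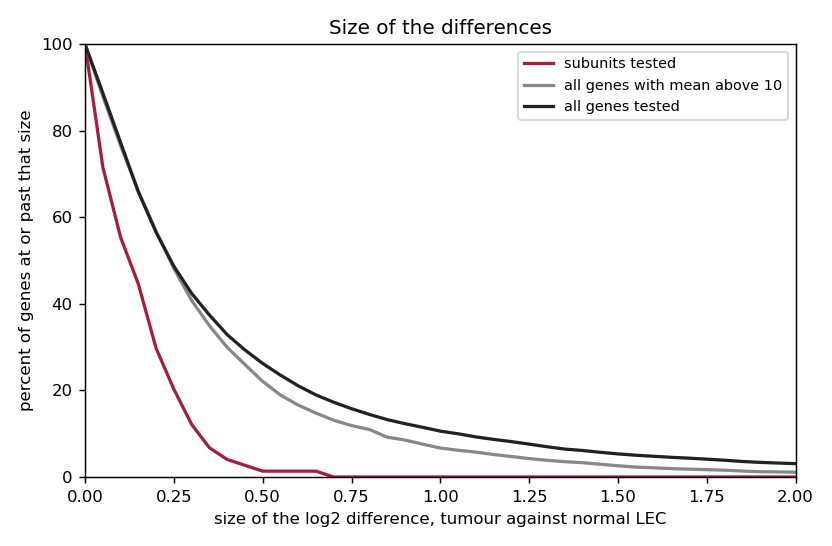
Share of genes, in percent, whose log2 difference between tumour and normal LEC is at or past the size on the x axis, for the 74 subunits tested, the 2539 genes with a mean above 10 and all 12955 genes tested. The line of the subunits falls to 1.35% at 0.5 and to 0 before 1, below both other lines.

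For 14 subunits (18.9%) all 3 tumour values lay on 1 side of all 3 normal values, 6 of them higher and 8 lower in tumour LEC. Among all genes tested 32.4% were separated in this way, 20.9% higher and 11.6% lower. The split depended on the scaling of the arrays and was 4 higher and 12 lower with median centring and 5 higher and 11 lower with quantile normalization. The count was 29 of 74 without tumour replicate 1 and 25 of 74 without normal replicate 3, when 46.2% and 43.9% of all genes were separated. Assigned by symbol, complex I held 9 of the 14, 4 higher and 5 lower among 33 tested, with Ndufa4 among the 5. Complex V held 3 among 17, complex III 1 among 8, complex IV 1 among 12 and complex II 0 among 4. That of complex IV was Cox8b, at background on all arrays.

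**Figure D2:**
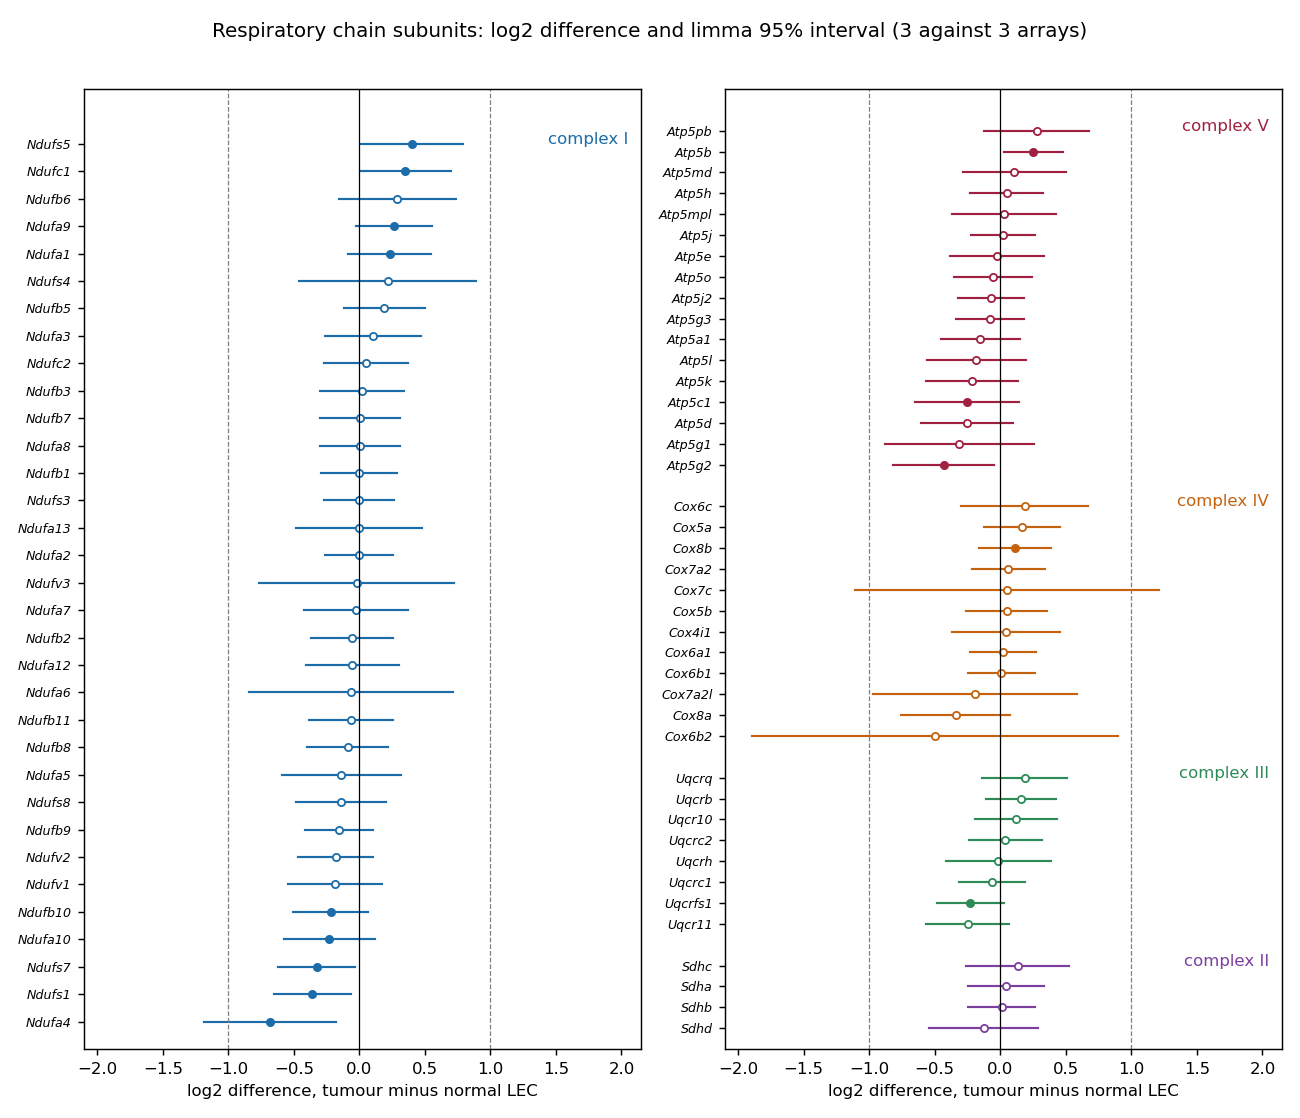
Log2 difference, tumour minus normal LEC, of each of the 74 tested subunits with its limma 95% interval (3 against 3 arrays), by complex. Filled points are the 14 subunits whose groups do not overlap, and dashed lines mark a 2-fold change. The intervals of Ndufa4 and Cox6b2 cross 1 of these lines, and that of Cox7c crosses both.

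Complex I, the NADH dehydrogenase, had a median difference of -0.0048 over its 35 genes. Its separated members went both ways, and Ndufa4 differed most of all subunits tested. Ndufa4 was first described in complex I and is now known as a subunit of complex IV, but by its symbol it is counted in complex I here. Its log2 level was 10.37, 9.89 and 9.79 on the tumour arrays and 10.93, 10.55 and 10.61 on the normal arrays. Every tumour array lay below every normal array, although tumour replicate 1 came within 0.5 log2 units of 2 normal arrays. The difference was -0.68 (SE 0.20, 95% interval -1.18 to -0.18), a level 1.60-fold lower in tumour LEC, and it did not pass (limma, adjusted p = 0.228). Over the 15 alternative settings it ranged from -0.86 to -0.56.

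The core of complex I carries the flavin and the iron-sulfur clusters along which electrons travel, and 6 of its nuclear-encoded members were measured. All 6 differences were negative on the brightest probe sets, with a median of -0.18 and a range of -0.36 to -0.0030, and 2 separated the groups. This grouping by role was made after the values were seen. Ndufs1, the largest of these subunits, read 10.50, 10.59 and 10.44 in tumour LEC and 11.01, 10.84 and 10.75 in normal LEC. The groups lay apart, and the difference was -0.36 (SE 0.12, limma adjusted p = 0.254). Ndufs7, which holds the last cluster before ubiquinone, read 12.31, 12.24 and 12.23 in tumour LEC and 12.67, 12.68 and 12.42 in normal LEC. It differed by -0.33 (SE 0.12, limma adjusted p = 0.288), and a second probe set of the gene gave -0.36. The others were close to or within the spread of the arrays, with Ndufv1, the NADH-binding subunit, at -0.18 (SE 0.14), Ndufv2 at -0.18 (SE 0.12), Ndufs8 at -0.14 (SE 0.14, up to 0.013 on its other probe sets) and Ndufs3 at -0.0030 (SE 0.11).

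Some accessory subunits, which surround the core of complex I and are needed for its assembly and stability, were on the other side. Ndufs5 read 9.24, 9.09 and 9.58 in tumour LEC and 9.00, 8.82 and 8.88 in normal LEC. Its lowest tumour value stood just above the highest normal value, and the difference was 0.40 (SE 0.16, limma adjusted p = 0.318). Ndufc1 read 12.11, 12.47 and 12.49 against 11.99, 11.96 and 12.07, a difference of 0.35 (SE 0.14, limma adjusted p = 0.321). The second probe set of Ndufc1 gave 0.14. Ndufa9 and Ndufa1 were separated as well, at 0.26 (SE 0.12) and 0.23 (SE 0.13), while Ndufa10 and Ndufb10 were separated in the lower direction, at -0.23 (SE 0.14) and -0.22 (SE 0.11). Of the 33 complex I subunits tested, 12 had positive and 21 negative differences.

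Complex II, the succinate dehydrogenase that also works in the citric acid cycle, has 4 subunits, all encoded in the nucleus, and all 4 were measured. None separated the groups, and the differences ran from -0.13 to 0.13 with a median of 0.027. The flavoprotein Sdha read 12.12, 12.03 and 11.85 in tumour LEC and 12.03, 11.92 and 11.92 in normal LEC, so that tumour values lay on both sides of the normal ones. The iron-sulfur protein Sdhb read 12.04, 12.13 and 12.12 against 12.16, 12.10 and 12.00. Its difference was 0.010 (SE 0.10) with a 95% interval of -0.24 to 0.26. The membrane anchors Sdhc and Sdhd differed by 0.13 (SE 0.16) and -0.13 (SE 0.17). The second probe set of Sdhc gave 0.35, with 8.48, 8.51 and 8.54 in tumour LEC and 8.02, 8.30 and 8.16 in normal LEC, and did separate the groups. Second probe sets turned the sign for Sdhd, at 0.13, and for Sdha, at -0.11.

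Complex III, the cytochrome bc1 complex, had a median difference of 0.012 over 8 genes, with 4 positive and 4 negative. Uqcrfs1, the Rieske iron-sulfur protein that moves electrons toward cytochrome c, was the only separated member. It read 11.44, 11.28 and 11.26 in tumour LEC and 11.55, 11.58 and 11.54 in normal LEC, where the replicates differed by very little (SD 0.017, n = 3). The difference was -0.23 (SE 0.10, limma adjusted p = 0.360). Uqcr11, a small accessory subunit, had a slightly larger difference of -0.25 (SE 0.13), but its groups overlapped. The large scaffold proteins Uqcrc1 and Uqcrc2 differed by -0.061 (SE 0.10) and 0.038 (SE 0.11). Uqcrb, Uqcrq and Uqcr10 had positive differences of 0.16, 0.19 and 0.12, all with overlapping groups. A second probe set of Uqcrb gave 0.62, the widest gap within a subunit among probe sets above background on all arrays. This probe set read 11.94, 12.47 and 12.93 in tumour LEC and 11.72, 11.72 and 12.03 in normal LEC, so that it overlapped too. The other probe sets of Uqcr10 above background turned the sign, at -0.065 and -0.10.

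Complex IV, cytochrome c oxidase, has several tissue-specific isoforms, and 12 of its 17 genes were tested. Their median difference was 0.046, with 9 positive and 3 negative. Cox8b, at background on all arrays, is 1 of the 9 and the only one of the 12 that separated the groups. Cox4i1, the common form of the regulatory subunit 4, read 13.72, 13.58 and 13.25 in tumour LEC and 13.52, 13.30 and 13.59 in normal LEC, with the groups intermixed (difference 0.043, SE 0.17). The 95% intervals were narrower for Cox6a1, at -0.24 to 0.27, and Cox6b1, at -0.25 to 0.26. Cox5a and Cox5b, which sit on the matrix side, differed by 0.17 (SE 0.12) and 0.050 (SE 0.12). Cox8a, the common form of the small subunit 8, differed by -0.34 (SE 0.17, limma adjusted p = 0.392), with 9.33, 8.87 and 9.00 in tumour LEC and 9.56, 9.24 and 9.42 in normal LEC, and only its tumour replicate 1 reached into the normal range.

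The isoforms that replace these subunits in other tissues were at background in both groups. Cox6a2, Cox7a1 and Cox8b, found in heart and skeletal muscle, read at background on all 6 arrays, as did Cox7b2 and Cox8c, which are testis forms. Cox4i2, an oxygen-responsive form known from lung, and Ndufa4l2, a relative of Ndufa4 known as a target of hypoxia-inducible factor, were at background on all arrays too. Their tumour and normal means were 2.43 and 2.36 for Cox4i2 and 1.69 and 1.66 for Ndufa4l2. Ndufb4, an accessory subunit of complex I, was the remaining gene at background throughout, on its single probe set. Of these 8 genes Cox8b alone passed the filter. Its groups did not overlap (2.72 to 2.73 against 2.74 to 2.98), but it has no level above the control probe sets in either group and is 1 of the 6 subunits counted as higher.

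**Figure D3:**
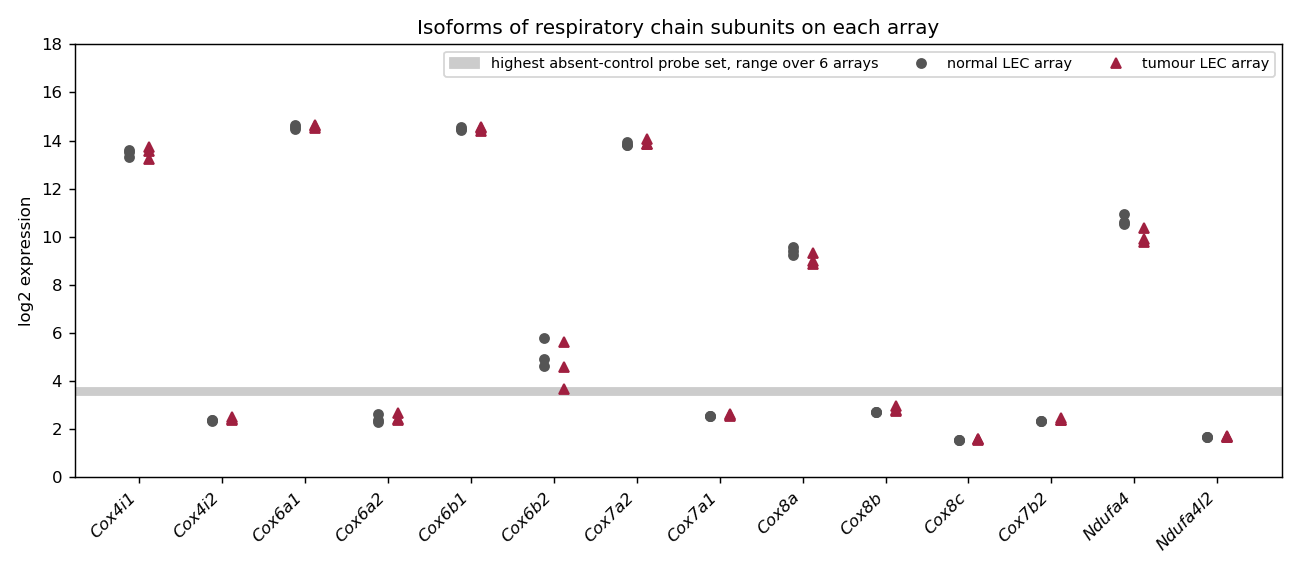
Log2 level of paired isoforms on each array, with normal LEC as circles and tumour LEC as triangles, and a grey band for the range of the highest absent-control probe set over the 6 arrays. Heights of different genes come from different probe sets and are not compared. The common forms of complex IV subunits lie far above the band in both groups. Cox6b2 lies above it or, on tumour replicate 3, inside it, and Cox4i2, Cox6a2, Cox7a1, Cox8b, Cox8c, Cox7b2 and Ndufa4l2 lie under it.

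Cox6b2, a further testis form, was the exception among the isoforms of other tissues and varied widely. It read 5.60, 4.56 and 3.67 on the tumour arrays and 4.92, 4.63 and 5.78 on the normal arrays, with the tumour replicate 3 value at background. The groups overlapped, and the 95% interval of the difference was -1.89 to 0.90. Cox7c, a small subunit with dim probe sets on this array, read 4.01, 4.85 and 5.85 in tumour LEC and 4.77, 4.76 and 5.03 in normal LEC, so its SD was 0.92 in tumour and 0.15 in normal LEC (n = 3). Its difference of 0.050 therefore has an interval of -1.11 to 1.21, and neither gene gives a usable bound on a change.

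Cox7a2l, which helps to join complexes III and IV into supercomplexes, was bright but uneven. It read 13.10, 12.31 and 12.00 in tumour LEC and 12.89, 12.42 and 12.67 in normal LEC, so that 1 tumour array was the highest of all 6 and the other 2 the lowest. Its 3 probe sets gave differences of -0.25 to -0.15, and in each of them tumour replicate 1 was highest and tumour replicate 3 lowest. The interval of the difference was -0.97 to 0.59. Other bright subunits with a wide spread in tumour LEC were Ndufa6 and Ndufs4 (SD 0.51 each) and Ndufv3 (SD 0.50, n = 3).

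Complex V, the ATP synthase, had a median difference of -0.069 over 17 genes, 6 positive and 11 negative. Atp5b, the catalytic beta subunit of its F1 head, had very tight replicates in both groups. It read 12.52, 12.50 and 12.50 in tumour LEC and 12.24, 12.25 and 12.27 in normal LEC. The gap between the groups was many times the SD of 0.015 and 0.018 (n = 3), yet limma, which also draws on the spread of other genes, gave 0.25 (SE 0.091, adjusted p = 0.288), a level 1.19-fold higher in tumour LEC. The other F1 subunits had negative differences, with the alpha subunit Atp5a1 at -0.15 (SE 0.12), the central stalk subunits Atp5c1, Atp5d and Atp5e at -0.25 (SE 0.16), -0.26 (SE 0.14) and -0.025 (SE 0.14). Of these, Atp5c1 separated the groups.

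The c-ring, the rotor in the membrane, is built from a single protein that 3 nuclear genes encode with different import sequences. All 3 had negative differences, and the median was -0.31. Atp5g2 read 10.75, 10.25 and 10.44 in tumour LEC and 10.95, 10.94 and 10.84 in normal LEC, with the groups apart, and differed by -0.43 (SE 0.15, limma adjusted p = 0.287), 1.35-fold lower in tumour LEC. Atp5g1 read 10.10, 10.40 and 10.86 against 10.93, 10.81 and 10.54, with overlap (-0.31, SE 0.23). Atp5g3 differed by -0.079 (SE 0.10). Both role groups of ATP synthase were formed after the values were seen, and among the remaining subunits Atp5pb, of the peripheral stalk, stood highest at 0.28 (SE 0.16).

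**Figure D4:**
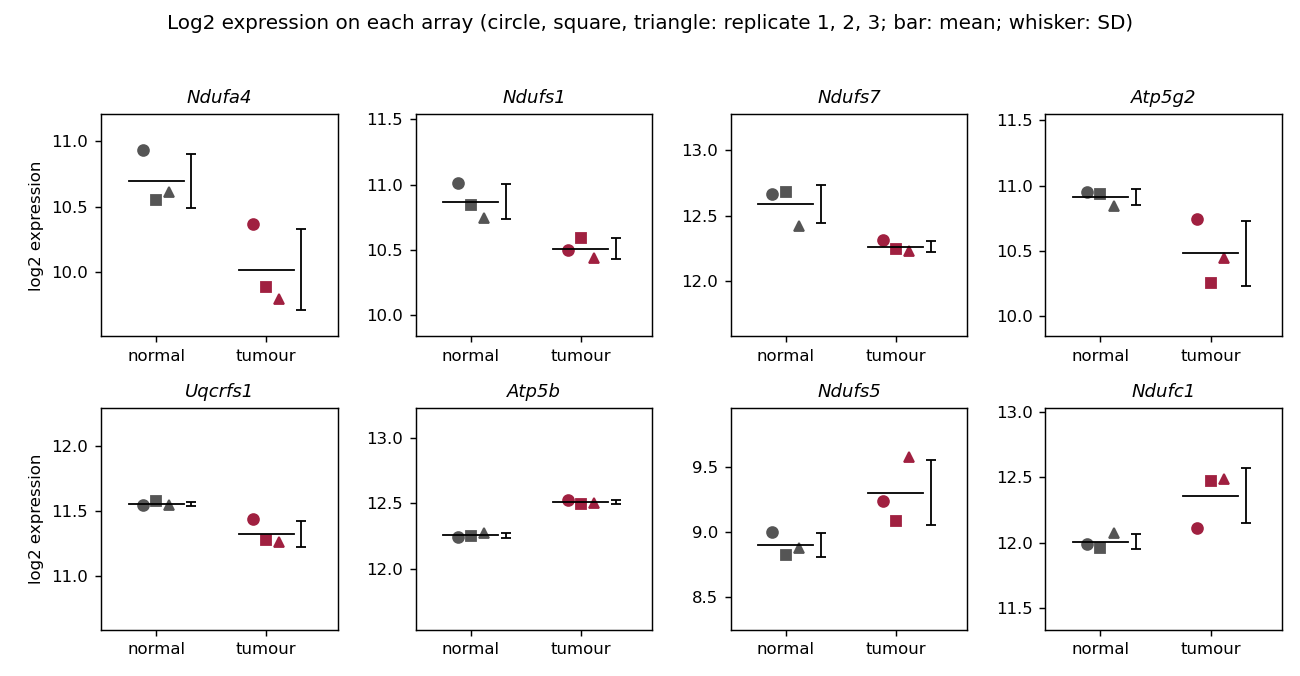
Log2 level on each array of 8 subunits, with 1 panel per gene, normal LEC in grey and tumour LEC in red, symbols for replicates 1 to 3, bars for the mean and whiskers for the SD (n = 3). All panels span the same number of log2 units around their own level, and in each the tumour values lie wholly below (Ndufa4, Ndufs1, Ndufs7, Atp5g2 and Uqcrfs1) or wholly above (Atp5b, Ndufs5 and Ndufc1) the normal values.

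Where a gene had several probe sets, the sign of its difference was often shared. Of the 81 subunits, 41 had at least 2 probe sets above background on all arrays. For 30 of them all such probe sets had the same sign, and for 11 they had both signs, among them Sdha, Sdhd, Uqcr10, Cox5a, Cox5b and Ndufs8. Over all 133 probe sets above background the median difference was -0.025. The brightest probe set did not always give the largest difference. Ndufc2 gave 0.049 on its brightest probe set (mean 14.34) and 0.36 on another (mean 10.97), which separated the groups. Ndufc1 went the other way, with 0.35 on the brightest (mean 12.18) and 0.14 on its second (mean 10.04).

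The arrays themselves differed little in the level of the subunits. The median deviation of the 81 subunits from their gene means was -0.0002, 0.016 and -0.037 on the tumour arrays and 0.052, -0.020 and -0.013 on the normal arrays. Normal replicate 1 was the highest array for 20 of the 74 tested subunits, and tumour replicate 3 the lowest for 28. On the same arrays fibroblast markers deviated by -1.61, -2.08 and -2.30 in tumour and by 4.17, 0.96 and 1.07 in normal LEC, and cell division genes by -0.72, 0.49 and -1.82 and by 0.61, 1.04 and 0.44. Leukocyte markers deviated by 2.09 in tumour replicate 1 and by -0.61 to 0.39 on the other 5 arrays. Tumour replicate 3 also had the highest background, with a limit of 3.71 against 3.40 to 3.53 on the other arrays.

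**Figure D5:**
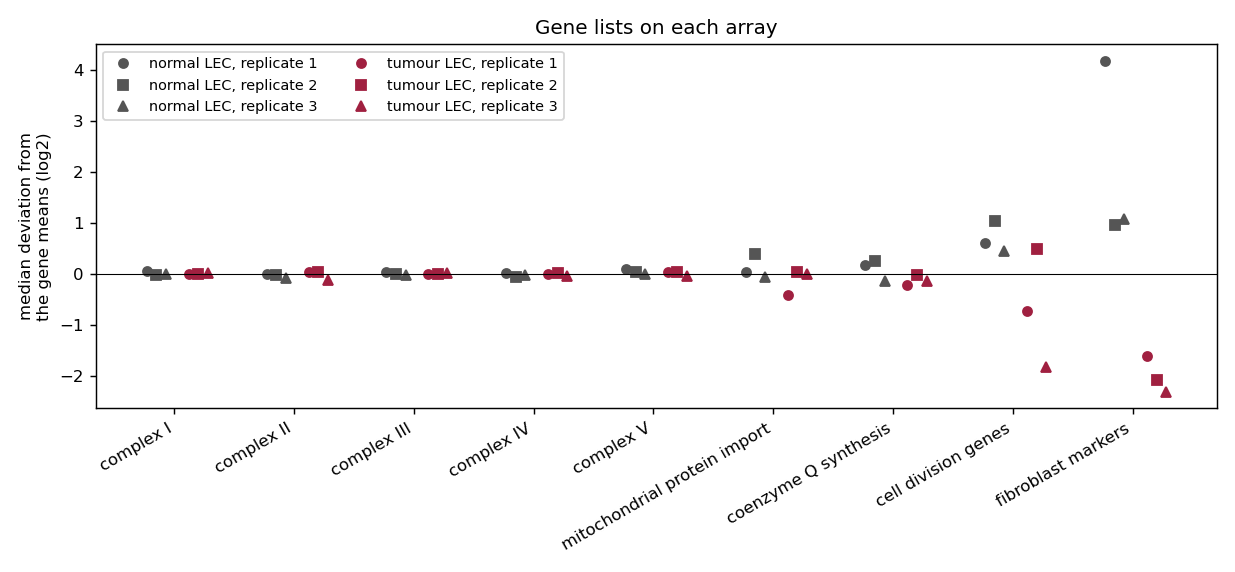
Median deviation from the gene means (log2) on each array for the subunits of the 5 complexes and for 4 other gene lists, with grey symbols for normal and red for tumour LEC. The points of the complexes lie between -0.12 and 0.10, while those of the fibroblast markers run from -2.30 to 4.17 and those of the cell division genes from -1.82 to 1.04.

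Genes that act around the chain were read from lists of related functions. None of these genes passed over all genes tested (limma), and the median size of the differences lay between 0.12 and 0.32 log2 units in the 7 lists. Of 43 assembly factors measured, 42 were tested. Their median difference was -0.070 over the 43, and 7 of those tested (16.7%) had an unadjusted p under 0.05, 2 higher and 5 lower, close to the 15.5% of all genes tested. Cox15, which makes the heme of cytochrome oxidase, had the smallest p of that list at 0.78 (SE 0.16, limma adjusted p = 0.126). Its brightest probe set is of a kind prone to cross-hybridization, and without such probe sets the difference was 0.050. Coenzyme Q synthesis genes had a median of -0.11 over 11 genes, with 3 (27.3%) under an unadjusted p of 0.05, 1 higher and 2 lower, against the same 15.5%. Coq7, a hydroxylase near the end of that pathway, read 9.77 ± 0.07 in tumour and 10.61 ± 0.20 in normal LEC (SD, n = 3), which is -0.84 (SE 0.14, limma adjusted p = 0.0863). Coq6, next by p in that list, went the other way at 0.47 (SE 0.13, limma adjusted p = 0.212).

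Of 21 genes for the transcription and maintenance of mitochondrial DNA and the control of its nuclear partners, 16 had negative differences and the median was -0.14. At an unadjusted p under 0.05 there were 3 (14.3%, against 15.5% of all genes), all lower. Tfam, which packages mitochondrial DNA, differed by -0.12 (SE 0.13), the regulator Nrf1 by 0.049 (SE 0.093) and Gabpa by -0.14 (SE 0.17). Polg2, the accessory subunit of the mitochondrial DNA polymerase, differed by -0.86 (SE 0.20, limma adjusted p = 0.152). The 20 import genes had a median of -0.16, with 5 of 20 separated in the lower and 0 in the higher direction, against 11.6% and 20.9% of all genes tested. An unadjusted p under 0.05 was reached by 1 of them (5%, against 15.5%). The median deviation of the import genes from their gene means was -0.41, 0.042 and 0.007 on the tumour arrays. On the normal arrays it was 0.039, 0.39 and -0.061, so that tumour replicate 1 and normal replicate 2 stood apart from the other arrays.

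The 20 genes tested of the citric acid cycle and pyruvate dehydrogenase had a median of -0.068. At an unadjusted p under 0.05 there were 2 (10%, against 15.5% of all genes), both lower. Pdha1, the alpha subunit of pyruvate dehydrogenase, which feeds the cycle, differed by -0.74 (SE 0.17, limma adjusted p = 0.154). Of the carriers and channels that exchange ATP and pyruvate 10 were measured and 7 tested, with a median of -0.012 and 0 at an unadjusted p under 0.05. Chain components outside the symbol rule numbered 6. Among them Ndufab1, the acyl carrier protein in complex I, differed by -0.18 (SE 0.14) on its brightest probe set, and Cycs, which encodes cytochrome c, by 0.18 (SE 0.16). The sign of Ndufab1 turned with the mean of its probe sets (0.16) and without probe sets prone to cross-hybridization (0.15). None of the 6 had an unadjusted p under 0.05.

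Promoters of subunits are known to carry sites for NRF1, for ETS factors such as GABP and for YY1, so their letters were searched on both strands in the RefSeq promoters of assembly GRCm38.p6, from 250 bases before to 50 bases after each start. Of the 81 subunits 66 matched, with 71 promoters. The NRF1 core, which is GCGCA followed at once by its reverse complement, was in 4 of the 71 (5.63%) and in 0.971% of all 32851 promoters. A shorter NRF1 site, TGCGCATG, which can overlap the core, was in 8 (11.3%) against 2.13%. The ETS motif CCGGAAG was in 17 (23.9%) against 8.86%, and the YY1 motif AAGATGGC in 9 (12.7%) against 2.75%. Of the 9 YY1 matches only that of Atp5j lay wholly before the start, and the others spanned the start or lay after it. The 4 matched subunits at background on all arrays held none of these motifs, but 4 promoters are too few to compare with such shares. A match is only a description of these letters.

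Windows upstream of 7 starts are shown because they hold each motif in genes of different complexes whose transcripts were bright in both groups. Each runs 5′ to 3′ on the strand of its gene, with the motif, or its reverse complement, in capitals. Atp5g2 (chr15:102671055-102671114, minus strand) and Cox6a1 (chr5:115349086-115349145, minus strand) hold the NRF1 core. Ndufb6 (chr4:40279467-40279524, minus strand) and Cox5b (chr1:36691410-36691467, plus strand) hold the shorter NRF1 site. Sdhd (chr9:50603864-50603920, minus strand) and Uqcr11 (chr10:80406856-80406912, minus strand) hold the ETS motif, and Atp5j (chr16:84835032-84835089, minus strand) the YY1 motif.
Atp5g2: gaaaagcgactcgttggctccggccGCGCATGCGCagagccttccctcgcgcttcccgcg
Cox6a1: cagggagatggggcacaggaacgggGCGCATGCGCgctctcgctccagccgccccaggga
Ndufb6: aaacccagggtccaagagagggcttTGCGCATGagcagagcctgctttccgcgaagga
Cox5b: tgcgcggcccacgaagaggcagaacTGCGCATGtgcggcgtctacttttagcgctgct
Sdhd: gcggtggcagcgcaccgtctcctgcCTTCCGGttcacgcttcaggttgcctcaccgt
Uqcr11: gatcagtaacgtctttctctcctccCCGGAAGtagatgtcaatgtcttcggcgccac
Atp5j: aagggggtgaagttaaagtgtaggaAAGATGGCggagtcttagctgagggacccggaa
Among these genes Atp5g2 separated the groups, at -0.43, while Cox6a1 (0.017), Ndufb6 (0.29), Cox5b (0.050), Sdhd (-0.13), Uqcr11 (-0.25) and Atp5j (0.020) had overlapping groups.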

How the data were processed

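The authors deposited a log2 value for each probe set and array. RMA and GCRMA are both named in the submitters' processing notes, and the method behind these values is not given in the sources used here. With GCRMA dim signals gather near a floor, where differences are hard to read. Of 45101 probe sets, 34945 carry a single gene in the platform annotation. The 3 tumour and 3 normal arrays were compared in R 4.3.3 with limma 3.58.1 (lmFit and eBayes). Genes were read from their brightest probe set, those with a mean above the 40th percentile (2.71) were kept, and p-values, two-sided, were adjusted by Benjamini-Hochberg over 12955 genes. Degrees of freedom were 4 residual and 1.61 prior. A value was at background at or below the highest of 27 absent bacterial controls on its array (3.40 to 3.71). Single-gene permutation tests, which cannot go below 0.1 with 3 against 3 arrays, were not run. The steps were tested on simulated data.

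The rule for named genes took a set of catalytic subunits and isoforms, in each complex up to 2 separated subunits per direction with the largest differences, the members at background, and the 2 genes with the smallest p of each related list. Not every list gene that the rule took is described in the text. Other subunits, such as Ndufs7, Ndufa9, Uqcr11 and Cox7c, and Tfam, Nrf1 and Gabpa were chosen with their values in view. The members and lists were chosen with earlier results of these data known. The number of arrays limits the precision. Alternatives were other filters, quantile normalization, median centring, an intensity trend, array weights, the mean of probe sets, no probe sets prone to cross-hybridization, a replicate block and leaving out each array.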

Additional observations from a re-analysis of the deposited data

How the results depend on the processing

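No subunit passed an adjusted p of 0.05 in any of the 15 alternative settings. The smallest adjusted p of a subunit ranged from 0.0612 with array weights to 0.468 without normal replicate 1. An unadjusted p under 0.05 (limma) was reached by 7 subunits in the main setting. Over the alternatives this count ran from 0 without normal replicate 1 to 12 with array weights. Median differences, taken here over all members of a complex, moved by small amounts with the scaling. For complex IV these are 17 genes, 6 of them at background on all arrays, with a median of 0.050 in the main setting. In the main setting and with median centring this median is the value of Cox7a1, which was at background on all arrays. Quantile normalization gave -0.043 for complex I, -0.013 for III, 0.0055 for IV and -0.13 for V. Median centring gave -0.061 for all subunits, -0.069 for complex I, -0.053 for III, -0.014 for IV and -0.13 for V. The mean of probe sets gave -0.024 for complex III. The cause of these moves was not tested. With single arrays left out, the medians ranged from -0.017 to 0.032 for all subunits, -0.040 to 0.022 for complex I, -0.012 to 0.064 for II, -0.053 to 0.088 for III, 0.029 to 0.069 for IV and -0.11 to -0.043 for V. The count of separated subunits ranged from 18 to 29 when an array was left out, which leaves fewer values to overlap, and from 13 to 20 otherwise, 20 being without a filter. Named subunits, of which none had passed, moved by more than their replicate SD in 16 of 525 alternatives. The sign changed in 43, in 17 of 35 named subunits, all with differences of up to 0.19. Array weights brought Cox15 (adjusted p = 0.0325) and Coq7 (0.0433) past the threshold.

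Over all genes tested 28 passed, against 10 without a filter, 97 with the 60th percentile filter, 385 with array weights and 4 to 81 when an array was left out. Arrays share replicate numbers, but same-numbered arrays did not all deviate together (correlations 0.193, 0.326 and -0.0038), and 4 of 6 arrays correlated best with their own number. With the replicate number as a block 46 genes and 0 subunits passed, 1 subunit had an unadjusted p under 0.05 and the smallest adjusted p of a subunit was 0.135. Dim genes such as Cox6b2 and Cox7c, and subunits at background, give no bound on a change.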
